A study of Rattus norvegicus with 12 samples.

Results

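The interleukin-6 family was followed in rat skull bone after surgery through 10 genes: the ligands Il6, Il11, Lif, Osm and Clcf1, and the receptor chains Il6st, Lifr, Osmr, Il6r and Il11ra1. Members were chosen by gene symbol, with earlier results of these data known, and each was read from the probe with the highest mean signal. All 10 passed the filter on dim probes and made up 10 of the 22926 genes tested. Bone was taken from the calvaria, the roof of the skull, of rats 10 weeks old, 6 hours after surgery. In the laser group a defect of 8 by 3 mm was ablated with 3 strokes of an Er:YAG laser (127 mJ per pulse, 20 Hz), and in the bur group a defect of that size was cut by drilling. Controls had only surgery on the soft tissue: the periosteum, the membrane that covers bone, was taken off and the bone was not ablated. Each group held 4 samples, each hybridised to its own one-colour array. The labels give no strain or sex and do not state whether 1 animal gave 1 sample, so the p-values speak only to sample-to-sample spread, which may be technical.

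Most cytokines of this family signal through the shared chain gp130, encoded by Il6st, alone or with a further chain that sets which ligand is read. Interleukin-6 and interleukin-11 first bind their own chains, encoded by Il6r and Il11ra1. Leukaemia inhibitory factor (Lif) uses gp130 with the LIF receptor, and oncostatin M (Osm) uses gp130 with the LIF or oncostatin M receptor. Cardiotrophin-like cytokine (Clcf1) is a ligand of the ciliary neurotrophic factor receptor complex. The bound complex activates JAK kinases and the transcription factor STAT3, and in bone the family is known to act on both osteoblasts and the formation of osteoclasts.

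Levels are log2 signal minus the 75th percentile of the array, so a level of 0 is the signal that 75% of probes do not exceed, and differences are in log2 units. Between 67.8% and 73.7% of spots were well above background on the 12 arrays and none was saturated. The scanner headers put all 4 controls on 1 slide and the 8 treated arrays on 2 other slides, each with 2 laser and 2 bur arrays (numbers 1 and 2 on one, 3 and 4 on the other). Treatment and slide therefore cannot be told apart in either comparison with the controls, and the added spike-in probes averaged 8.13 to 8.83 (log2 signal) on treated arrays and 4.92 to 5.34 on controls. Both comparisons also share the same 4 controls. In whole bone, a higher or lower signal can come from more or fewer cells of a type or from more or less RNA per cell, and these cannot be told apart.

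Among the ligands, Il6, Il11 and Lif rose after laser ablation and after drilling, by between 3.02-fold (Il6, laser) and 3.92-fold (Il11, laser). Osm and Clcf1 did not pass the test in either comparison. Among the receptor chains, Lifr rose 2.38-fold after laser and 2.40-fold after bur, Osmr rose 1.59-fold and 2.09-fold, and Il6r fell by 0.72 after laser and fell by 0.76 after bur on the log2 scale. Il6st, the shared chain, rose 1.38-fold after bur and was 1.28-fold higher after laser without passing. Counted over all members by limma with Benjamini-Hochberg adjustment over all genes, 5 were higher, 1 lower and 4 not past the threshold of 0.05 in laser against control, where 32.2% of all genes tested were higher and 17.6% lower. In bur against control 6 were higher, 1 lower and 3 not past the threshold, where 32.7% of all genes were higher and 18.3% lower. The median difference of the members was 0.68 for laser and 0.86 for bur, and that of all genes was 0.21 and 0.23. Controls 2 and 4 carried skeletal muscle signal, and without them 3 members passed in each comparison: Il11, Lif and Lifr after laser and Il11, Osmr and Lifr after bur. Calls over all genes also fell, from 49.8% to 29.4% of genes for laser and from 51% to 28.6% for bur.

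**Figure D1:**
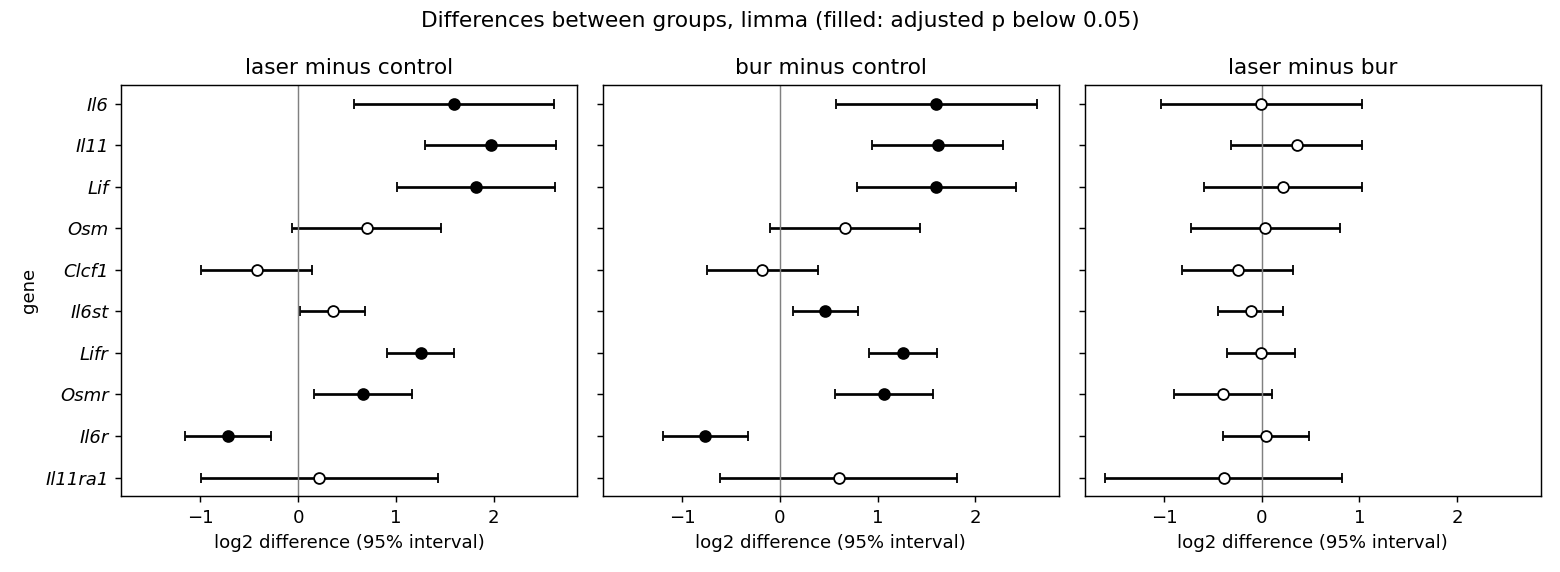
Log2 difference of each member in the 3 comparisons, with 95% intervals from limma over 12 arrays; filled points have an adjusted p below 0.05. Il6, Il11, Lif, Lifr and Osmr lie to the right of 0 and Il6r to the left in both comparisons with the control, while all 10 intervals of laser minus bur include 0.

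The promoters of 3 members are shown because they hold letters that match sites of factors known to switch on cytokine genes. RefSeq windows of the GRCr8 assembly, from 250 bases before to 50 bases after the annotated start, were found for 6 members (Il6, Il11, Il6r, Il6st, Osmr and Lifr). Lif, Osm, Clcf1 and Il11ra1 are named only. Capitals mark matches to the AP-1 letters TGANTCA, the cyclic AMP response element TGACGTCA, or the NF-kB site, searched as GGG and TTCC with 3 bases between them.
Il6, chr4:5894526-5894825, minus strand: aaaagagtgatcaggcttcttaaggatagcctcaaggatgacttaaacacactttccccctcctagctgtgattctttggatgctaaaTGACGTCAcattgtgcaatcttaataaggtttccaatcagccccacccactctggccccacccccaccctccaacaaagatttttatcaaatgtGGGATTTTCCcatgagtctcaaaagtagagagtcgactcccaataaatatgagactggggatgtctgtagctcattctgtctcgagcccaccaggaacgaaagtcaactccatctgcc
Il11, chr1:78098372-78098671, plus strand: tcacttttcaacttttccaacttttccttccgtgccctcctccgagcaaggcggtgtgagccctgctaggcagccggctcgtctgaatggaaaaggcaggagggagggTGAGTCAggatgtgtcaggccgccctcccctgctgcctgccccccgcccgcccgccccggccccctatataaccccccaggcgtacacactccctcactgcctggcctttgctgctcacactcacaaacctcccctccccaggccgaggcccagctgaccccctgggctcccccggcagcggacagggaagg
Osmr, chr2:57688512-57688811, minus strand: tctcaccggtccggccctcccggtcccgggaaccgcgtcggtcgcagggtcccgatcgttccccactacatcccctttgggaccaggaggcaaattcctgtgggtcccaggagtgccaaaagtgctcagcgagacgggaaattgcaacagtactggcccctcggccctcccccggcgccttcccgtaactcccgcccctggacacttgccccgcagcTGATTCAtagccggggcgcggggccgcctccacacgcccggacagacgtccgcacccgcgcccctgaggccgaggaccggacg
The Il6 window held the cyclic AMP response element 162 bases before the start and an NF-kB match 68 bases before it. The Il11 window held an AP-1 match 142 bases before the start and the Osmr window held one 33 bases before it. Both strands were searched, and the AP-1 and cyclic AMP letters do not overlap one another here. Among 33469 RefSeq windows of the same length, 7.33% held an AP-1 match, 1.83% the cyclic AMP response element and 5.37% an NF-kB match. The STAT letters TTCNNNGAA, found in 8.87% of windows, are not in any of the 6 member windows. These matches describe the sequence only, since binding was not measured.

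Il6 encodes interleukin-6, a cytokine released early after tissue injury, and its probe (chr4:457279-458563 in RGSCv3.4, minus strand, as the array design places it) spans more than its own length on the genome. Its level was -1.60, -3.03, -1.46 and -1.06 in controls 1 to 4. It was 0.33, -0.20, -0.57 and -0.31 in bur samples 1 to 4. It was 0.87, -1.09, -0.49 and -0.05 in laser samples 1 to 4. All bur samples lay above all controls, whereas laser sample 2 lay just below control 4, and control 2 was the lowest of all. The difference was 1.60 (SE 0.47) for laser, with an adjusted p of 0.0160 by limma with Benjamini-Hochberg adjustment. It was 1.60 for bur with the same SE and an adjusted p of 0.0156. With slide as a random block both differences stayed at 1.60, and the limma adjusted p became 0.0519 for laser and 0.0509 for bur. With normexp background correction they were 0.99 and 0.95, both past the threshold. Without the 2 controls that carried muscle signal (2 and 4), the differences were 1.34 and 1.34 and the limma adjusted p 0.0576 and 0.0577.

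Il11 encodes interleukin-11, a relative of interleukin-6 that is made by bone cells among others (probe at chr1:67792503-67792562). Its level was -3.50, -4.67, -3.13 and -3.24 in controls 1 to 4, and control 2 was not well above background. Bur samples lay close together at -1.94, -2.08, -2.07 and -1.99. Laser samples were at -1.38, -2.19, -1.48 and -1.60. All treated samples exceeded all controls. Il11 rose by 1.97 after laser (SE 0.30, adjusted p 0.000623 by limma), and by 1.61 after bur (adjusted p 0.00180 by limma). The size depended on the background correction: with normexp the differences were 0.66 and 0.42, and with the authors' normalized values 1.14 and 0.75, all past the threshold.

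Lif encodes leukaemia inhibitory factor (probe at chr14:84890560-84890619). Controls were tight, at -3.32, -3.71, -3.59 and -3.91. Bur samples spread from -0.92 in sample 1 through -1.96 and -2.37 to -2.88 in sample 4. Laser samples were at -1.27, -1.76, -2.38 and -1.85. Neither treated group overlapped the controls. The rise was 1.82 (SE 0.37, adjusted p 0.00258 by limma) after laser and 1.60 (adjusted p 0.00501) after bur. A further Lif probe, whose target overlaps that of the first (chr14:84890562-84890621), gave 2.11 and 1.99 with limma adjusted p of 0.000684 and 0.000967. With normexp background correction the laser difference was 0.64 (limma adjusted p 0.0384), and the bur difference was 0.49 and did not pass (limma adjusted p 0.102). Without controls 2 and 4 the bur difference was 1.42 (limma adjusted p 0.0553).

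Osm encodes oncostatin M, a ligand known chiefly from macrophages and neutrophils (probe at chr14:84860861-84860920). Its level was 0.78, 1.08, 1.53 and 1.03 in controls. It was 2.77, 1.74, 1.28 and 1.30 in bur samples, and 2.56, 1.5, 1.62 and 1.54 in laser samples. Sample 1 of each treated group stood well above its group, and the other treated samples lay between 1.28 and 1.74, against a highest control of 1.53. The differences of 0.70 for laser and 0.67 for bur had limma adjusted p of 0.112 and 0.127. A further Osm probe gave 0.28 and 0.14, with limma adjusted p of 0.422 and 0.676. With bur sample 1 left out of the joint fit the laser difference of 0.70 had a limma adjusted p of 0.0425. From the treated arrays numbered 1 and 2 alone, the bur difference was 1.15 (limma adjusted p 0.0243).

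Clcf1 encodes cardiotrophin-like cytokine, a ligand of the ciliary neurotrophic factor receptor complex (probe at chr1:206806002-206806061). Controls were at -0.43, -1.18, -0.44 and -0.52, bur samples at -0.28, -1.20, -0.84 and -0.96, and laser samples at -0.60, -1.52, -1.23 and -0.92. The 3 groups overlapped. The differences were -0.42 (95% interval -0.99 to 0.14, adjusted p 0.186 by limma) for laser and -0.18 (-0.74 to 0.39, adjusted p 0.572) for bur. With replicate number as a block, the laser difference stayed at -0.42 and the limma adjusted p became 0.0307. The authors' deposited table lists Clcf1 at -0.29 for laser against control with an adjusted p of 0.0479, from a model not given. Fitted by limma as for the main values, the authors' normalized values gave -0.29 with an adjusted p of 0.277. With normexp background correction the limma adjusted p for laser was 0.103.

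**Figure D2:**
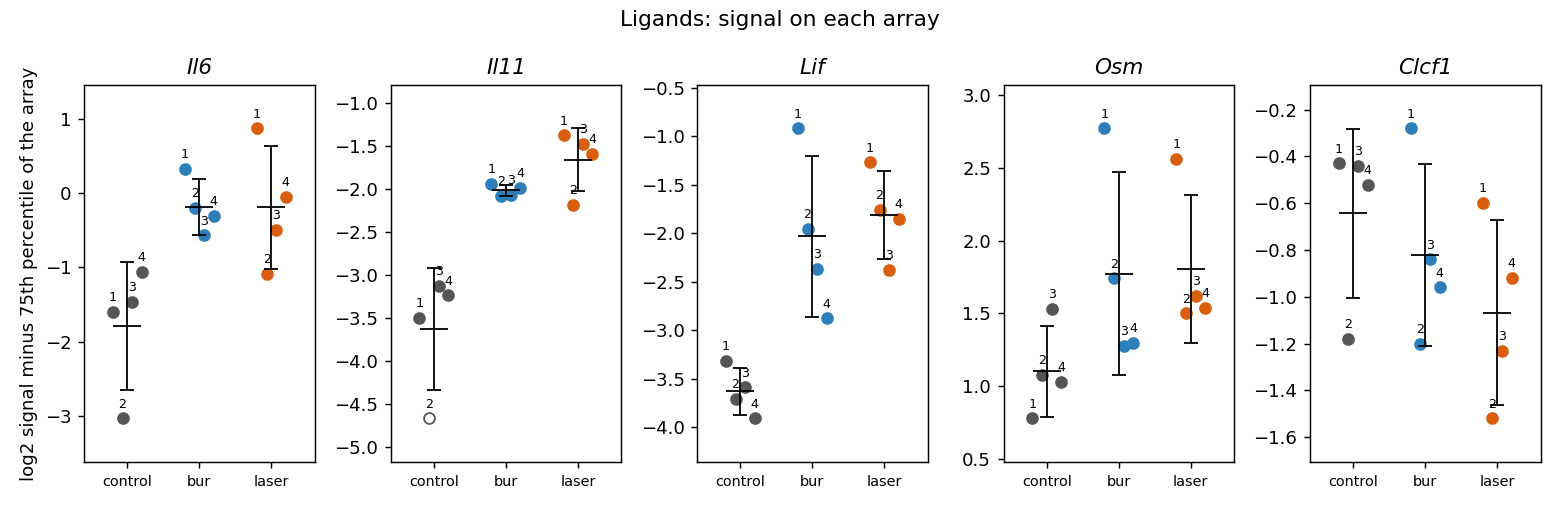
Level of each ligand on the 12 arrays (y axis: log2 signal minus the array's 75th percentile, own scale per gene), with sample numbers, and the mean and SD of 4 samples in black; open points were not well above background. Every treated sample lies above every control for Il11 and Lif, and sample 1 is the highest treated sample of its group for all 5 ligands.

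All 5 ligands were highest in sample 1 among the laser arrays and in sample 1 among the bur arrays. Among the receptor chains this held for 2 of 5 laser and 1 of 5 bur profiles, and 3759 of the 22926 genes (16.4%) were highest in sample 1 of both groups. Both samples shared a slide. Without both, 5 members passed in laser against control and 7 in bur against control, where 43.2% and 46% of all genes did. Control 2 was the lowest control for 6 of the 10 members. The share of all genes lowest in control 2 was not counted, so this is not shown to be particular to the family.

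Il6st encodes gp130, the signalling chain that most of the family shares (probe at chr2:43838549-43838608). Its level was 4.28, 3.65, 4.11 and 3.98 in controls, 4.34, 4.30, 4.65 and 4.58 in bur samples, and 4.52, 4.21, 4.35 and 4.35 in laser samples. All bur samples were above all controls, if narrowly, and laser sample 2 lay below control 1. The rise after bur was 0.46 (SE 0.15, adjusted p 0.0250 by limma). The laser difference of 0.35 had a limma adjusted p of 0.0713, which became 0.0455 with replicate number as a block. The bur call was lost with quantile normalization (0.25, limma adjusted p 0.204), with slide as a block (limma adjusted p 0.0678) and without control 2 (0.35), bur 3 (0.40), bur 4 (0.43) or control 4 (0.46). Without controls 2 and 4 the bur difference was 0.27. A further Il6st probe gave -0.19 for laser and 0.30 for bur, neither past the threshold. With the authors' normalized values the laser difference was -0.07, and the bur difference was 0.21 and did not pass (limma adjusted p 0.28). The bur call was also lost with the mean of both probes (0.38, limma adjusted p 0.0628). With only bur and control in the fit, its limma adjusted p was 0.0506.

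Lifr encodes the LIF receptor, which pairs with gp130 for Lif and also takes part in oncostatin M signalling (probe at chr2:56477054-56477113). Controls were at -0.34, -0.84, -0.33 and -0.39. Bur samples were at 0.93, 0.64, 0.76 and 0.83, and laser samples at 0.83, 0.52, 0.68 and 1.09. All 8 treated samples exceeded all 4 controls by a gap larger than the range of either treated group. The rise was 1.25 (SE 0.16, adjusted p 0.000242 by limma) after laser and 1.26 (adjusted p 0.000281) after bur. The other Lifr probes also rose, by 1.16 and 1.90 after laser and by 1.32 and 2.13 after bur. Lifr kept its direction and call under every alternative run except a minimum difference of 1 log2 unit, and passed in both comparisons without controls 2 and 4.

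Osmr encodes the oncostatin M receptor (probe at chr2:56080710-56080769, minus strand) and was dim. Controls were at -4.11, -4.89, -4.43 and -4.22, with 2 of 4 well above background. Bur samples were at -3.41, -3.58, -3.13 and -3.27, all well above background, and laser samples at -3.42, -3.83, -3.42 and -4.30, with 3 of 4 well above background. All bur samples exceeded all controls, whereas laser sample 4 lay among the controls. The rise was 1.06 (SE 0.23, adjusted p 0.00345 by limma) after bur and 0.67 (adjusted p 0.0310) after laser. With normexp background correction the differences were 0.05 and 0.03 and neither passed. The laser call was also lost with quantile normalization (0.44) and without laser 1 (0.56), control 2 (0.51), laser 3 (0.56) or control 3 (0.66). Osmr belongs to the dimmest of 5 equal bins of genes by signal, whose median difference was 0.56 for laser and 0.69 for bur.

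Il6r encodes the interleukin-6 receptor chain, which many leukocytes carry (probe at chr2:182078323-182078382, minus strand). Controls were at 0.41, 0.59, 0.87 and 0.56. Bur samples were at -0.09, -0.48, 0.24 and -0.28, and laser samples at -0.56, -0.06, -0.05 and 0.24. Every treated sample lay below every control. Il6r fell by 0.72 (SE 0.20, adjusted p 0.0125 by limma) after laser and fell by 0.76 (adjusted p 0.00914) after bur. A further, dimmer Il6r probe, well above background on 9 of 12 arrays, gave -0.02 and 0.52 with limma adjusted p of 0.974 and 0.223, so the probes disagree. With the mean of both probes the differences were -0.37 and -0.12 and did not pass. Without controls 2 and 4 they were -0.75 and -0.80, with limma adjusted p of 0.0628 and 0.0531.

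Il11ra1 encodes the interleukin-11 receptor chain (probe at chr5:59198800-59199391, a span longer than the probe). Its level scattered in every group, with controls at 0.73, -0.25, -1.06 and 0.79, bur samples at 0.29, 0.80, 0.25 and 1.28, and laser samples at 0.97, 1.03, 0.38 and -1.30. The groups overlapped. The differences of 0.22 (95% interval -1.0 to 1.43) for laser and 0.60 (-0.61 to 1.82) for bur had limma adjusted p of 0.759 and 0.371.

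**Figure D3:**
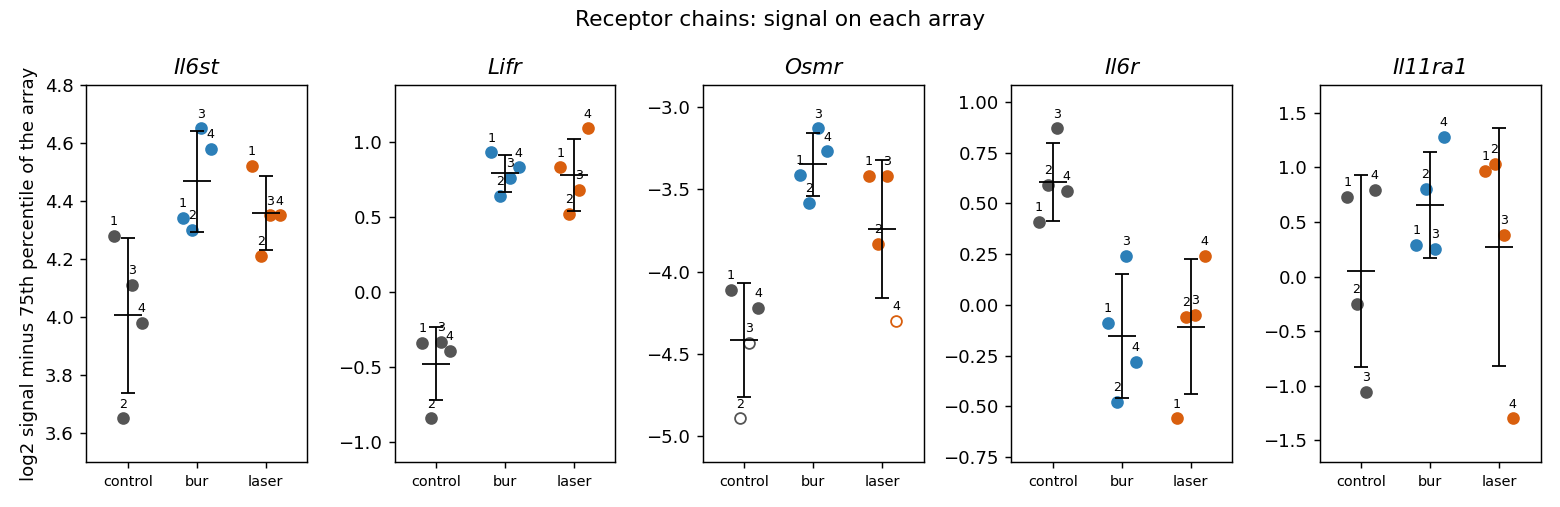
Level of each receptor chain on the 12 arrays (y axis: log2 signal minus the array's 75th percentile, own scale per gene), with sample numbers, and the mean and SD of 4 samples in black; open points were not well above background. All treated samples lie above all controls for Lifr and below all controls for Il6r, and Il11ra1 scatters within every group.

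Counted by overlap, 3 members in laser and 6 in bur had all treated samples above all controls, where 31% and 30.4% of all genes did. In each comparison 1 member, Il6r, had all treated samples below all controls, where 17.8% of all genes did so for laser and 15.7% for bur. The split of calls moved with the scaling. In bur against control 64.2% of the genes called were higher, and this share was 54.0% with the authors' normalized values and 51.6% with normexp, where the median of all genes was -0.01.

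Laser and bur arrays shared their slides, and in the direct comparison none of the 10 members passed, where 0.00436% of all genes did (1 gene, with 1493 genes at an unadjusted p below 0.05). On the probes used, no member had an unadjusted p below 0.05, and none had groups that did not overlap, where 3.56% of all genes did. A further Il6st probe (chr2:43833273-43833332), well above background on all 12 arrays, was at 0.75, 0.55, 0.38 and 0.42 in laser samples and at 1.22, 0.89, 1.0 and 0.95 in bur samples, so that on this probe every laser sample lay below every bur sample. Its difference was -0.49 (95% interval -0.90 to -0.08), with a limma adjusted p of 0.587 over all probes, against -0.11 on the probe used. The smallest limma adjusted p was 0.846, for Osmr, at -0.40 (95% interval -0.90 to 0.11). Il11 differed by 0.36 (-0.31 to 1.03), Lif by 0.22 (-0.59 to 1.03) and Il6 by -0.00 (-1.03 to 1.02). An Il6 signal 2.03-fold higher after laser than after bur thus lies inside its interval. The interval was narrowest for Il6st, at -0.44 to 0.22, and Lifr, at -0.36 to 0.34, and widest for Il11ra1, at -1.60 to 0.83. The authors' deposited table also lists none of the 10 members as passing in this comparison, with a smallest adjusted p of 0.413 for Il11.

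The rest of the pathway was read from 60 listed genes, of which 58 were measured. In laser against control 15 were higher and 11 lower, and in bur against control 17 were higher and 12 lower, with a median difference of 0.25 and 0.27. These shares and medians lie near those of all genes, of which 32.2% were higher and 17.6% lower for laser and 32.7% and 18.3% for bur, with medians of 0.21 and 0.23. None passed between laser and bur. Among 7 measured further family members, 1 was higher and 1 lower in each comparison with the control. Il31 encodes interleukin-31, which signals through Osmr and a chain of its own instead of gp130, and its probe was not well above background on any control. It was at least 1.67-fold higher after laser (limma adjusted p 0.00188) and at least 1.14-fold higher after bur (limma adjusted p 0.00805). Each bound sets the treated mean against the higher of each control array's detection limit and its own signal. The Il31 probe met the filter on dim probes only through treated arrays (3 of 4 laser and 2 of 4 bur). These p-values therefore lend no independent support to a rise. The Il31 call was lost with 1 of 4 other scalings for laser and 2 of 4 for bur, 1 of which turned the bur difference. Il27ra, a receptor chain for interleukin-27 that lymphocytes carry, fell by 1.86 after laser and fell by 2.44 after bur, with 1 of 4 samples well above background in each treated group. All 4 controls were well above background and alone met the filter, which favours genes that fall. The size of these falls near background is uncertain. Ctf1, which encodes cardiotrophin-1, was 0.91 and 1.06 higher and did not pass (limma adjusted p 0.0905 and 0.0526).

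Of 13 signal transducers and shedding enzymes, 2 rose and 5 fell after laser, and 3 rose and 5 fell after bur. Stat3, the main transcription factor of the pathway, rose by 0.93 (SE 0.19, limma adjusted p 0.00262) after laser and by 0.90 (0.00317) after bur, and its lowest treated level of 2.75 lay above its highest control level of 2.36. Gab2, an adaptor between receptors and kinases, fell by 0.71 after laser and fell by 0.73 after bur. Grb2, an adaptor towards the MAP kinase branch, fell by 0.48 after laser and differed by -0.29 after bur, which did not pass (limma adjusted p 0.0679). The kinase Jak1 differed by 0.26 and 0.09 and Jak2 by -0.14 and -0.12, none past the threshold. Jak1, Jak2 and, below, Socs3, Socs1, Il1b, Tnf and Hp are named for their known roles, outside the naming rule and after their values were seen. Bcl3, Cebpb, Vegfa, Junb and Mcl1, below, are likewise outside that rule and are named to complete the STAT3 targets called higher or lower.

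Of 7 feedback inhibitors, 4 rose and 1 fell in both comparisons. Socs3, which binds gp130 and limits its signal, lay between 2.39 and 3.59 in controls, 3.91 and 4.31 in bur samples and 3.98 and 4.35 in laser samples. Both treated groups thus lay above all controls, as 31% of all genes did for laser and 30.4% for bur, and they overlapped each other. It rose by 1.06 (SE 0.23, limma adjusted p 0.00333) after laser and by 0.99 (0.00499) after bur. Cish rose by 1.11 and 1.14 and Socs2 by 0.80 and 0.94, both being suppressors known mainly from growth hormone and STAT5 signalling. Pias3, a STAT3 inhibitor, rose by 0.87 and 1.09. These 4 kept their call under all 4 other scalings, except Pias3 after laser under 1 of them. Socs1, at 0.81 and 0.79 higher, did not pass.

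Of 20 measured targets of STAT3 signalling, 4 were higher and 3 lower after laser and 4 higher and 4 lower after bur, shares no larger for the higher calls than those of all genes. Timp1, an inhibitor of matrix metalloproteinases, rose by 1.60 (SE 0.23, limma adjusted p 0.000417) and by 1.28 (0.00137). Pim1, a survival kinase, fell by 0.66 after laser and differed by -0.33 after bur, which did not pass. Lcn2, which encodes an iron-binding protein stored in neutrophil granules, fell by 1.99 (limma adjusted p 0.00415) after laser and fell by 2.10 (0.00312) after bur. Hp, which encodes haptoglobin and is expressed in neutrophils too, fell by 1.35 after laser and fell by 1.70 after bur. Junb (-0.70, limma adjusted p 0.0325) and Mcl1 (-0.43, limma adjusted p 0.0368) were also lower after bur. After laser they differed by -0.25 and -0.37 without passing. The other targets called higher in both comparisons were Bcl3 (0.66 after laser and 1.12 after bur), Cebpb (0.64 and 0.84) and Vegfa (0.53 and 0.63). Their calls held under 2, 1 and 1 of 4 other scalings for laser and under 4, 4 and 3 for bur. Of 11 inducers and regulators of the cytokine mRNAs, 4 rose and 1 fell after laser, and 5 rose and 1 fell after bur. Ptgs2, the prostaglandin-making enzyme, rose by 1.86 and 1.80, and Zfp36, which destabilises cytokine mRNAs, rose by 1.59 and 1.33. Il1b rose by 1.45 (limma adjusted p 0.0260) and 1.34 (0.0355), Tnf differed by 0.61 and 0.46 without passing, and Tgfb1, a growth factor stored in bone matrix, fell by 0.72 after laser and fell by 0.72 after bur. The Il1b call held under 2 of 4 other scalings for laser and 1 of 4 for bur.

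**Figure D4:**
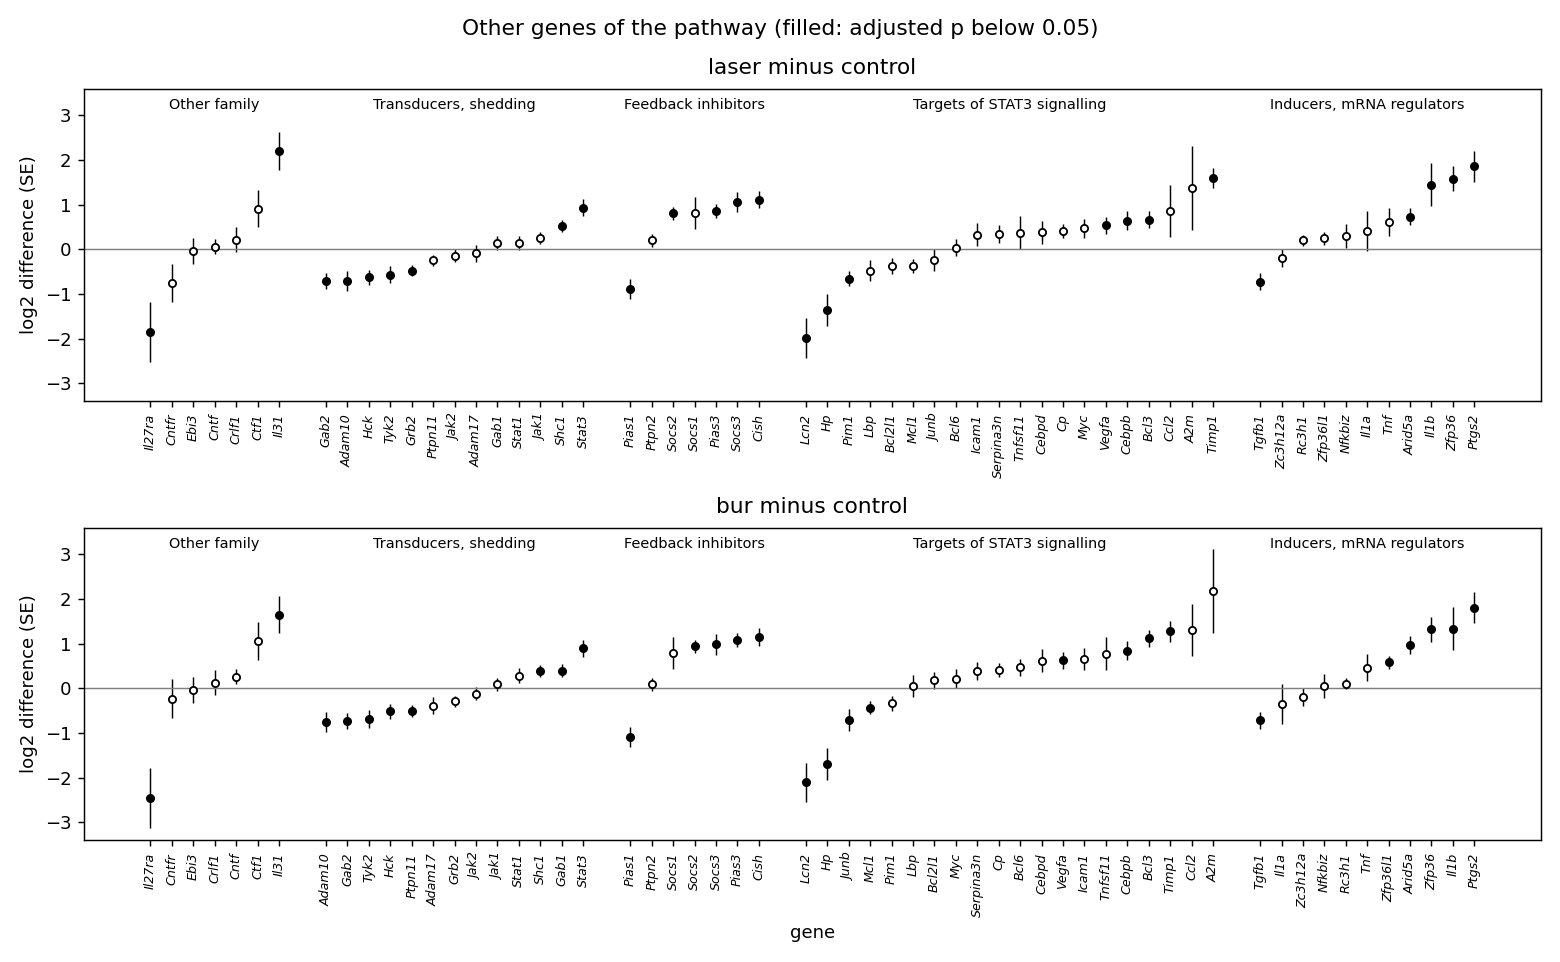
Log2 difference (point) and SE (bar) of the 58 measured pathway genes in laser minus control (top) and bur minus control (bottom), sorted within each list; filled points have a limma adjusted p below 0.05. Feedback inhibitors lie mostly above 0, with Pias1 below, and the STAT3 targets spread from Lcn2 at -1.99 to Timp1 at 1.60 in the top panel.

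By likeness of profile, measured as the root mean square difference between centred levels over 12 arrays among 14777 genes, Drgx (0.30), Ptgs2 (0.35) and Wscd2 (0.37) were nearest to Il6, where the median gene lay at 0.99. Nearest to Il6st were Hmox2 (0.10), Zdhhc20 (0.11) and Tmem259 (0.11), with a median of 0.47. These are descriptions of 12 arrays that share the group and slide structure.

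Markers of other cells moved with the same comparisons. Over all genes, 32.2% were higher and 17.6% lower after laser, and 32.7% and 18.3% after bur. Osteoblast and osteocyte markers, which define the labelled tissue, were present, and their summed signal, in multiples of the array's 75th percentile, was 1209 to 1607 in controls, 2022 to 3177 in bur and 2559 to 2767 in laser samples, with 9 of 10 markers higher in each comparison and 1 lower after laser. Of 7 periosteum and fibroblast markers 4 were higher in each. Neutrophil markers summed to 611 to 752 in controls, 308 to 778 in bur and 298 to 696 in laser samples, with 4 of 8 lower after laser and 3 after bur. Monocyte and macrophage markers summed to 225 to 275, 206 to 340 and 309 to 379, with 1 of 8 higher and 5 lower after laser and 4 lower after bur. Each sum is weighted towards its brightest genes. Here that is Lyz2 (mean level 7.61 in controls and 8.25 in laser samples), the 1 marker higher after laser. Among neutrophil markers it is S100a8 and S100a9, which did not pass. B cell markers summed to 55.0 to 88.8 in controls, 9.95 to 34.1 in bur and 5.93 to 26.2 in laser samples, with 4 of 5 lower after laser and 3 after bur. T and NK cell markers summed to 22.2 to 26.0, 5.07 to 18.1 and 3.84 to 13.0, with 4 of 6 and 3 of 6 lower. Skeletal muscle markers summed to 188.1 in control 2, 74.3 in control 4 and at most 8.03 in all other samples. Among the other lists, erythroid (4 of 5 in each), platelet (3 of 4), neural (5 of 5) and adipocyte (3 of 3) markers were lower, 3 of 4 keratinocyte markers were higher and 1 lower, and endothelial markers gave 1 of 5 higher after bur and 0 after laser. Elavl3, Gfap, Cidec, Lep, Gp1ba, Krt1 and the T cell marker Cd5 were well above background on 4 of 4 controls. At most 2 of 4 arrays of either treated group were, so the controls alone met the filter. Krt5 met it only through treated arrays (0 of 4 controls). The calls of these markers therefore lend no independent support to a change. The part of these markers in the changes of Il6r, Il27ra, Lcn2, Lifr and the ligands was not tested.

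**Figure D5:**
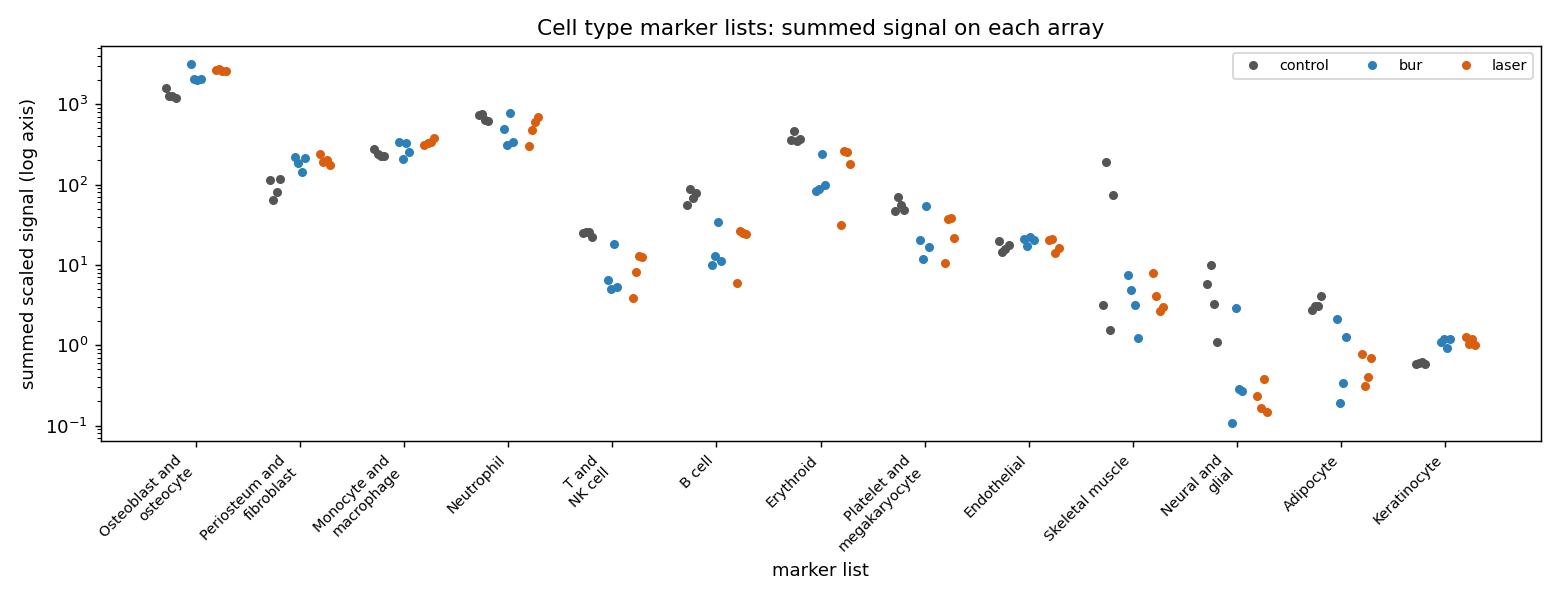
Summed signal of each marker list on each array, in multiples of the array's 75th percentile, on a log axis; grey points are controls, blue points bur and orange points laser. Lymphocyte markers are lower in treated samples, osteoblast markers are higher, and muscle markers stand out at 188.1 and 74.3 in a pair of controls.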

How the data were processed

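RNA from 12 samples was labelled with Cy3 and read on one-colour Agilent arrays. The spot intensity and the marks for background and outliers are the authors' deposited scanner output, written by version 11.0.1.1 of Agilent Feature Extraction, per the file headers. Per the file headers and names, the authors also deposited log2 quantile-normalized values and tables with a p-value for each comparison, by a model not given in the sources. Samples were grouped by title.

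The processed signal, already background-subtracted within the array, was put on the log2 scale, control and outlier spots were left out, and the array's 75th percentile was subtracted. Of 45598 probes, 30121 that were well above background on at least 4 of 12 arrays were kept, with the brightest probe for each of 22926 gene names. The array design's names and coordinates (RGSCv3.4) can be old. limma 3.58.1 in R 4.3.3 (lmFit, eBayes) fitted 3 group means, with adjusted p-values (Benjamini-Hochberg, all 22926 genes) called below 0.05. This was checked on simulated data. Alternatives covered scaling, background correction, filters, probe choice, blocks and samples left out; those by slide, by muscle signal and by sample 1 were added after seeing the data. The members and the gene lists were chosen with earlier results of these data known. Named genes were all members and up to 3 genes of each pathway list by smallest adjusted p. The number of arrays limits the precision.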

Additional observations from a re-analysis of the deposited data

Results flagged for a closer look

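In 3 of 30 sets (10 members in 3 groups of 4 samples) 1 sample stood apart from the rest of its group, where chance sets apart about 1 in 20 groups. For Osm the highest laser sample, number 1, was separated from the next by 0.886 of the group's range. For Clcf1 the lowest control, number 2, was separated by 0.878, and for Lifr the lowest control, also number 2, by 0.877. Control 2 was the control with the highest muscle marker signal, and its part in these values was not tested.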

How the results depend on the processing

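With a minimum difference of 1 log2 unit, 0 members passed in laser against control and 0 in bur against control, and over all genes the calls went from 11421 to 322 and from 11699 to 170. With treated arrays numbered 3 and 4 alone, 3 members passed for laser, where 34.6% of all genes did. Il6 was at 1.52 with a limma adjusted p of 0.0827, Il6r at -0.51 with 0.103 and Osmr at 0.55 with 0.158. For bur 5 members passed, where 35.8% of all genes did, with Il6 at 1.35 (limma adjusted p 0.112) and Il6r at -0.63 (0.0546). Without the controls that carry muscle signal (2 and 4), 3 passed for laser and 3 for bur, where 29.4% and 28.6% of all genes did. Each of these counts rests on fewer samples. Between laser and bur 0 members passed under all alternatives, with 0 to 10 calls over all genes. Leaving out 1 sample at a time gave 5 to 7 members for laser and 6 to 7 for bur, with 40% to 51.9% and 41.7% to 51.6% of all genes called. The replicate block gave 8 members for laser, adding Clcf1 (limma adjusted p 0.0307) and Il6st (0.0455), 7 for bur and 0 between them. It called 54.6% of all genes for laser and 56.2% for bur. Arrays sharing a number correlated at 0.04 to 0.58 and others at -0.49 to 0.21, and 17 of 24 times an array correlated best with its own number. All 12 same-number correlations were positive, but some were not above 0.1 and the labels state no pairing. The main fit therefore left the samples unpaired, and whether the numbers pair them is not settled. In both comparisons with the control Il11 and Lifr kept their call wherever tested, except under the minimum difference. Il11 was not tested where only probes well above background on all arrays were kept. Dim probes, such as those for Osmr and Il11, limit what can be measured near background.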
